A study of Caenorhabditis elegans with 2 samples.

Results

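The regions described here are the strong ELT-3 binding regions of Caenorhabditis elegans that lie on the autosomes, away from promoters and outside genes. They were chosen by their pooled ChIP-seq signal and their place. The pooled list of 30000 regions was ordered by signal, the first 2000 were kept, and 310 of these (15.5%) met the rule of place. The summit, the single position that the files mark in each region, had to lie on a chromosome other than X and in no promoter, no protein-coding gene and no annotated exon. Promoters were taken as the 1000 bp before and the 200 bp after each protein-coding 5′ end. The 310 regions made up 19.8% of the 1565 strong regions on autosomes, beside 492 in promoters, 368 in introns and 395 in exons. Another 3779 autosomal regions met the same rule of place at ranks below 2000 and are called the lower-ranked distal regions.

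Chromatin came from whole L1 larvae of mixed sex, sheared by sonication and precipitated for ELT-3. The worms were strain OP75, genotype unc-119(ed3) III; wgIs75, in which a transgene expresses ELT-3 fused at its C terminus to a GFP-FLAG tag, and the antibody field of the labels names elt-3. There was 1 group with 2 biological replicates, both of this genotype and stage, and no second condition. The labels name a control, which is not analysed here. Tagged and endogenous ELT-3 were not separated, and whole larvae do not show in which cells a region was bound.

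ELT-3 is a zinc-finger transcription factor of the GATA family, known for its role in the epidermis, the tissue that secretes the cuticle. GATA factors bind short DNA sites with a GATA core, and several family members act in the epidermis and the intestine of the worm. Worm genes lie close together and most regulatory sequence lies near 5′ ends. Distal intergenic regions can act as enhancers, and their target gene cannot be read from position alone.

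The sequences below show what the strongest of these regions hold at their summits. Each is the window of 101 bases centred on the summit, 50 bases to each side, on the plus strand of ce11 (WBcel235), taken from the RefSeq copy of that genome. Capitals mark GATA sites, here TGATAA or TGATAG, and AGATAA or AGATAG, read on either strand, so that a site on the minus strand appears as its reverse complement, such as TTATCA for TGATAA. The windows were selected among those of the 15 largest signals and those with several sites, after their letters had been seen, and are named by the protein-coding gene with the nearest 5′ end. The first set holds 6 of the 7 regions with a pooled signal over 60. Each of these windows carries at least 1 GATA site, and in the first and second sites overlap as TTATCTTATCA, the reverse complement of TGATAAGATAA.
Y37A1A.2, chrIV:13919344-13919444: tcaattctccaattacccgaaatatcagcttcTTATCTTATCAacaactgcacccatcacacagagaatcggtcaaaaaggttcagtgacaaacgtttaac
R08D7.7, chrIII:8986975-8987075: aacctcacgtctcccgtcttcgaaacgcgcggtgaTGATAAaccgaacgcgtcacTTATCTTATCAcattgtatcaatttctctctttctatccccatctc
irld-18, chrIV:14594333-14594433: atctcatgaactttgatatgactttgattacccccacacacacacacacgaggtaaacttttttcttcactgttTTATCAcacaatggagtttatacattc
F45D3.3, chrV:12548919-12549019: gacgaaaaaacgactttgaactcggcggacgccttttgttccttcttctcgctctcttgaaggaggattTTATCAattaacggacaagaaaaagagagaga
acs-5, chrIII:13544746-13544846: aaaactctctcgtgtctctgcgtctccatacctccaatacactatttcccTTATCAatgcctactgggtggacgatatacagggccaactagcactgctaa
Y37D8A.5, chrIII:12849285-12849385: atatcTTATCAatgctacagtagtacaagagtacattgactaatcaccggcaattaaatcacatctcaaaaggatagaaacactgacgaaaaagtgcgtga

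The second set shows windows with several GATA sites among the first 50 regions, including further copies of the overlapping pair. The window near zig-13 held 5 sites, the most of any of the 310, and the one near ZC513.14 held 3 close to its summit.
zig-13, chrIII:154309-154409: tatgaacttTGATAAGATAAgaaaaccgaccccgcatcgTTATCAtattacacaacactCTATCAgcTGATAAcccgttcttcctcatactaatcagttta
gei-1, chrIII:3339762-3339862: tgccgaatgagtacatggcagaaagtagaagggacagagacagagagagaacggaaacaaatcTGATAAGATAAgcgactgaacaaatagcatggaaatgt
tps-2, chrII:14597951-14598051: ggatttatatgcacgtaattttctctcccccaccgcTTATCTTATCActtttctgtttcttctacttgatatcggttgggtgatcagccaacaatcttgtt
ZC513.14, chrV:8040871-8040971: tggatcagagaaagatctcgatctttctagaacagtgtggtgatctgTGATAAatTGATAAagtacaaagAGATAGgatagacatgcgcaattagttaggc

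The third set shows strong windows that hold CACGTG, the palindromic E-box bound by many basic helix-loop-helix factors. The windows near nhr-119 and Y38E10A.14 had an E-box and no GATA site, so they are printed without capitals, and those near lpin-1 and mak-1 had both. The mak-1 window held 2 E-boxes, 1 on each side of its only GATA site.
nhr-119, chrII:2803034-2803134: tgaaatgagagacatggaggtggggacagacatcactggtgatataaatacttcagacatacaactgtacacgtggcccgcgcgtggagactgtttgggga
Y38E10A.14, chrII:12625800-12625900: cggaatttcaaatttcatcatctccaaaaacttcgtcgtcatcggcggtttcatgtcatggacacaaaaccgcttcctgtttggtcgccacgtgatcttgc
lpin-1, chrV:13657521-13657621: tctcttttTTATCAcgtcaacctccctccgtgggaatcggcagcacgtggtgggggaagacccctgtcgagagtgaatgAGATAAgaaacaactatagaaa
mak-1, chrII:8742068-8742168: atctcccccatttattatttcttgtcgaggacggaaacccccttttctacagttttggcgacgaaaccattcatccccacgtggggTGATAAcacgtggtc

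The pooled signal, the authors' score on a scale their notes do not name, went from 25.8 to 131.6 among the 310 regions, with a median of 30.03 and quartiles of 27.4 and 35.4. Signal chose the regions, so these values are a description. The median of the whole pooled list was 16.9. Only 7 regions exceeded 60, and 154 lay under 30. The weakest region kept, upstream of bli-4, which encodes a proprotein convertase of cuticle formation, had rank 1996 and a signal of 25.85. The first distal intergenic region left out had rank 2018 and a signal of 25.77, so the threshold of rank separated regions of nearly the same signal. The authors' optimal set of 253 regions held 43 of the 310, those of largest signal, all at pooled ranks up to 253.

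The strongest region, of pooled rank 7, had a summit at position 13919394 of chromosome IV, 6365 bp upstream of Y37A1A.2 in a space of 21356 bp between 2 divergent genes. Its signal was 131.6 in the pooled list, 53.6 in replicate 1 and 72.9 in replicate 2, at ranks 10 and 5 of the replicate lists. It was thus near the head of both lists, although the replicates were scored separately and their levels are not on a shared scale.

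The next, of pooled rank 8, lay 1227 bp upstream of mstr-1 on chromosome I, with 110.9 in the pooled list, 60.5 in replicate 1 and 51.7 in replicate 2. The third lay at 8987025 of chromosome III, 3027 bp upstream of R08D7.7 and facing pde-2, a cyclic nucleotide phosphodiesterase gene. It had a signal of 91.4 in the pooled list, 44.9 in replicate 1 and 41.4 in replicate 2. Both ranked within the first 16 in either replicate. The fourth lay 13344 bp upstream of irld-18, a gene of the family with insulin and EGF receptor L domains, and had 85.6 pooled, 37.5 in replicate 1 and 49.97 in replicate 2.

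Below these, the replicates diverged more in rank. The region 1416 bp from the 5′ end of F45D3.3, on its downstream side, had 70.4 in the pooled list, 39.7 in replicate 1 and 28.1 in replicate 2. Its summit lay 9 bp from the annotated ncRNA gene F45D3.10. The region 1262 bp upstream of acs-5, an acyl-CoA synthetase gene, had 69.4 in the pooled list, 41.1 in replicate 1 and 27.5 in replicate 2. In both regions replicate 2 placed the summit at ranks past 100, at 103 and 118, against 29 and 24 in replicate 1. The region 6159 bp from Y37D8A.5, also on the downstream side, had 66.7 in the pooled list, 37.3 in replicate 1 and 30.4 in replicate 2.

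Ranks 8 to 15 among the 310 had pooled signals between 54.2 and 59.7. They included 2 regions in the space between idpb-4 and mak-1, a kinase gene of the MAPKAP family, with pooled signals of 59.7 and 54.2. Replicate 1 gave 38.3 and 35.3 there and replicate 2 gave 24.3 and 20.7. The region 2484 bp upstream of nhr-119, a nuclear hormone receptor gene, had 58.3 in the pooled list, 26.6 in replicate 1 and 29.2 in replicate 2. The region upstream of lpin-1, which encodes a lipin of lipid synthesis, had 55.8, 24.97 and 27.6 in the same order. These regions were listed in both replicates.

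The region near plin-1, the perilipin gene of lipid droplets, behaved otherwise. Its pooled signal was 54.98, with 33.6 and rank 41 in replicate 2 but 15.97 and rank 2196 in replicate 1. A wider gap occurred at pooled rank 118, near K07F5.15 and nhr-4, where replicate 2 gave 22.9 at rank 212 and replicate 1 gave 8.53 at rank 26657. That region was named after its values were seen.

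A summit of replicate 1 lay within 100 bp of the summit of 279 of the 310 regions, 90.0% with a 95% exact (Clopper-Pearson) interval of 86.1% to 93.1%. For replicate 2 the number was 266, 85.8% with an interval of 81.4% to 89.5%. Intervals cover counting error only. Both replicates listed 238 regions, replicate 1 alone 41, replicate 2 alone 28, and neither listed 3. Over the whole pooled list 58.2% of summits had a match in replicate 1 and 34.8% in replicate 2. The pooled list was made from the reads of both replicates, so these matches are not independent of the choice of regions. Strong promoter regions, chosen by the same signal, matched at 92.5% and 88.8%.

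Of the 310 regions, 158 (51.0%) were among the first 2000 of replicate 1 and 165 (53.2%) among the first 2000 of replicate 2. The shares were 6.27% and 6.18% over all pooled regions, and 49.2% and 57.3% in strong promoter regions. In both at once there were 73 (23.5%), and 60 were in neither. Over the 238 regions listed in both, signals ran from 8.22 to 60.5 in replicate 1 and from 8.75 to 72.9 in replicate 2. The Spearman correlation was 0.076 and the Pearson correlation of log2 signals 0.24 across these regions. All were selected on the sum that both replicates feed, and regions are not independent replicates.

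**Figure D1:**
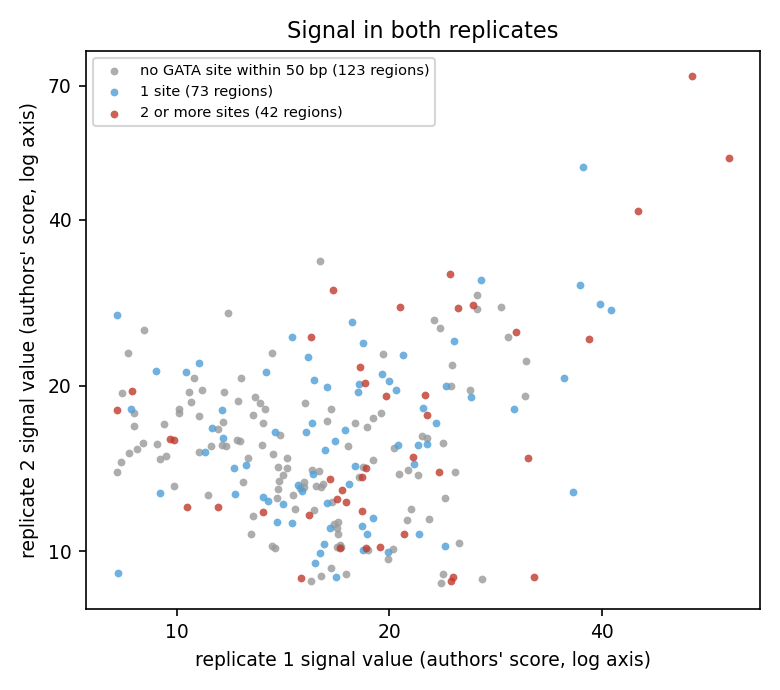
Signal in replicate 1 (x axis) and replicate 2 (y axis), authors' score on log axes, for the 238 regions listed in both replicates; each point is a region, coloured by its number of GATA sites within 50 bp of the summit. The replicates were scored separately, so the axes are not on a shared scale. A few regions with sites stand at the upper right, up to 60.5 and 72.9, while most of the others form a cloud without a clear trend.

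At least 1 GATA site lay within 50 bp of the summit in 143 of the 310 regions, 46.1% (40.5% to 51.9%). In windows of the same length centred 500 bp to each side, the share was 139 of 620 (22.4%). The odds ratio was 2.96 (exact 95% interval 2.19 to 4.01), and Fisher's exact test, 2-sided, gave p = 3.68e-13. Paired by region, windows with a site at the summit alone outnumbered those with a site in the flank alone 2.88 to 1 for the left flank and 2.76 to 1 for the right (exact McNemar test, p = 1.33e-09 and p = 5.61e-09). Among all 30000 pooled regions the share was 21.6%, so flanks and the average listed region had about the same content. A match to these letters is a description of sequence and not a measured contact.

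Strong distal regions held sites more often than strong promoter regions, where 148 of 492 (30.1%) had one. The odds ratio was 1.99 (1.47 to 2.70), with an adjusted p of 8.54e-06 by Fisher's exact test with Benjamini-Hochberg adjustment over 3 comparisons. With sites counted within 25 bp only, the difference lost the call (odds ratio 1.30, adjusted exact p = 0.240). Promoter windows were richer in G and C, at 43.7% ± 8.3 (SD over 492 windows) against 40.8% ± 7.1 over the 310. Within 3 strata of that content, a comparison added after the data were seen, the Mantel-Haenszel odds ratio was 1.65.

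Strong intronic regions had a site in 153 of 368 cases (41.6%). The odds ratio of distal against intronic regions was 1.20 (0.877 to 1.65, adjusted exact p = 0.244), so no difference was called, and the interval allows one in either direction. The direction turned within 25 bp (0.840, adjusted exact p = 0.356), whereas within 100 bp distal regions had more (1.51, adjusted p = 0.0111). Lower-ranked distal regions had a site in 863 of 3779 cases (22.8%), which gave an odds ratio of 2.89 (2.27 to 3.69) and an adjusted p of 3.01e-17. Their windows were 37.1% ± 8.0 G and C, and the odds ratio was 3.30 within the 3 strata. Untested, the share was 20.8% in strong exonic regions and 34.9% in strong regions of chromosome X.

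Within the 310, the share with a site went down with rank. It was 64.3% (27 of 42) at ranks 1 to 250, 24 of 40 at 251 to 500, 48.8% (40 of 82) at 501 to 1000 and 35.6% (52 of 146) at 1001 to 2000. In lower-ranked distal regions it was 32.8% at ranks past 2000 up to 4000 and between 21.5% and 22.5% in the 3 bins beyond. Intronic regions went from 24 of 40 at ranks 1 to 250 to 33.3% at 1001 to 2000. Promoter regions lay between 25.2% and 39.0% there, with 28.05% at ranks 1 to 250. These shares are given by rank without a test. All of the first 7 regions, 12 of the first 15 and 33 of the first 50 had a site.

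**Figure D2:**
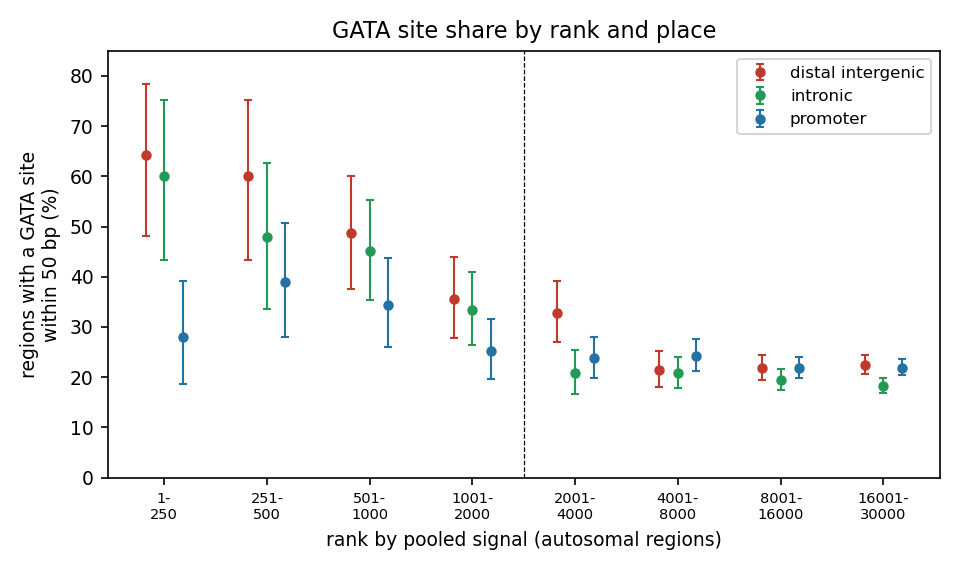
Percent of autosomal regions with a GATA site within 50 bp of the summit (y axis) in bins of rank by pooled signal (x axis), for distal intergenic, intronic and promoter regions; points are shares, bars are 95% exact binomial intervals, and the dashed line marks rank 2000. Distal regions go from 64.3% in the first bin to 35.6% just before the line, while promoter regions start at 28.05%.

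A single site occurred in 94 windows, 2 in 36, 3 in 10, 4 in 2 and 5 in 1. At least 2 sites were present in 49 windows (15.8%) and in 22 of the 620 flanks (3.55%). Untested between classes, that share was 14.4% in strong intronic, 10.4% in strong promoter and 3.92% in lower-ranked distal regions, and 11.5% in strong regions of chromosome X. Of the first 50 regions 14 had at least 2 sites. The windows held 209 sites in all.

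The sites were not densest on the summit itself, a difference that was not tested. Their density was 5.89 per kb within 20 bp of the summits, both sides together. In single bins of 20 bp it was highest, at 8.71 per kb, from 20 to 40 bp on the right of the plus strand. The same bin on the left held 6.94 per kb. Over both sides the density was 6.08 per kb from 40 to 100 bp, 3.48 from 100 to 200 bp and 2.89 beyond 200 bp. The autosomes as a whole held 2.33 sites per kb. The closest site lay at a median of 23.5 bp from the summit in the 143 regions that had one, and within 25 bp in 75 of them. In the printed window near acs-5 the middle of the site lies 2.5 bp from the summit, and in that near Y37D8A.5 it lies 42.5 bp away.

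**Figure D3:**
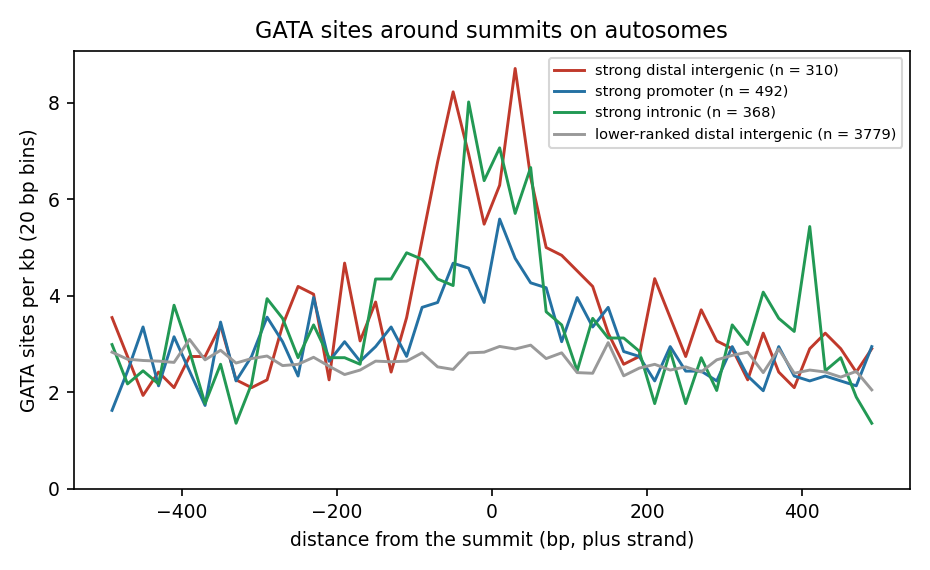
GATA sites per kb in bins of 20 bp (y axis) by distance from the summit in bp on the plus strand (x axis), for strong distal intergenic (310), promoter (492) and intronic (368) regions and lower-ranked distal regions (3779). The strong distal line reaches 8.71 per kb on the right of the summit, with a dip at the centre that was not tested. It falls towards 2.89 beyond 200 bp, and the lower-ranked line stays nearly flat.

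The 4 words were not used equally. TGATAA made up 130 of the 209 sites (62.2%), against 44.8% of the sites in flanks. AGATAA made up 18.2% at summits and 24.5% in flanks, AGATAG 8.61% and 19.6%, and TGATAG 11.0% in both. A G followed the 6 letters in 41.1% of summit sites and 20.2% of flank sites. GATAAG, which this G completes only after TGATAA or AGATAA, was in 21.9% of summit windows and 4.52% of flanks. The odds ratio was 5.94, with an adjusted p of 1.37e-14 by Fisher's exact test over 8 motifs. The share of GATAAG over all pooled regions was 5.52%. The 4 GATA words read backwards, which keep their base composition, were in 22.6% of summit windows and 20.5% of flanks.

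The pair TGATAAGATAA, 2 sites sharing their A, was searched for after it had been seen in the printed windows, so it carries no test. It was in 6 of the 310 windows (1.94%), namely those near Y37A1A.2, R08D7.7, zig-13, gei-1, tps-2 and ced-1, the engulfment receptor gene. It was in 2 of 492 promoter windows, 2 of 368 intronic windows, 7 of 3779 lower-ranked windows (0.185%) and 34 of all 30000 (0.113%). The first 5 of these regions had pooled signals from 48.7 to 131.6, and that near ced-1 had 32.97.

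Among the fixed motifs, GAGAGA, a GA repeat, stood out next to the GATA sites. It was in 84 of 310 windows (27.1%, 22.2% to 32.4%) and in 5.97% of flanks, with an odds ratio of 5.86 and an adjusted p of 2.42e-17 over 8 motifs. Over all pooled regions the share was 7.403%. In comparisons added after these values were seen, the share was 17.3% in strong promoter regions (adjusted p = 0.00151), 17.4% in strong intronic regions (adjusted p = 0.00277) and 8.44% in lower-ranked distal regions (adjusted p = 2.29e-19), by Fisher's exact test over 3 comparisons. Windows with a GATA site had GAGAGA in 28.7% of cases and the others in 25.7%. In all, 41 windows had both, 43 GAGAGA alone, 102 GATA alone and 124 neither.

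Runs of GA were mostly short, with a median of 7 bp, but 11 windows had a run of at least 10 bp and the longest was 31 bp. In 22 of the 84 windows a GAGAGA lay in sequence that the genome marks as repetitive. Windows at these summits were 16.6% repeat-marked on average and their flanks 38.6%, and the part of repeats in the GAGAGA share was not tested.

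CACGTG was in 17 windows (5.48%) against 1.45% of flanks, with an odds ratio of 3.94 and an adjusted p of 0.00204 over 8 motifs by Fisher's exact test. The word is rich in G and C, which made up 40.8% of summit windows and 34.1% of flanks. The part of base composition in this difference was not tested. Its share was 5.49% in strong promoter regions, 4.62% in strong intronic regions and 2.56% over all pooled regions. Of the 17 windows 4 were among the 15 strongest, and 5 of the 17 also had a GATA site. Another lay near mml-1, itself a gene for a basic helix-loop-helix factor, with a signal of 40.2, named after its value was seen. TGTTTAC, the forkhead word, was in 8 windows (2.58%, 1.12% to 5.02%) and 0.323% of flanks (odds ratio 8.19, adjusted exact p = 0.00520), against 1.36% over all pooled regions. The ratio rests on 2 of 620 flanks. Untested between classes, the share was 1.83% in lower-ranked distal, 1.22% in strong promoter and 1.36% in strong intronic regions, each within that interval. None of these 8 was among the first 50 regions.

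TGANTCA, the AP-1-like word, was less frequent at summits than beside them, in 5 of 310 windows (1.61%) against 4.68% (odds ratio 0.334, adjusted exact p = 0.0326). It stood at 2.94% over all pooled regions and, untested between classes, at 2.03% in strong promoter and 1.63% in strong intronic regions. The part of base composition in the difference from flanks was not tested. AGGTCA, a nuclear receptor site, was at 3.55% and 2.74% (adjusted exact p = 0.620), with 2.94% over all pooled regions. CGCTCC, a GC-rich word, was at 1.94% and 1.61% (adjusted exact p = 0.790), with 1.80% over all pooled regions and 6.71% in strong promoter regions.

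**Figure D4:**
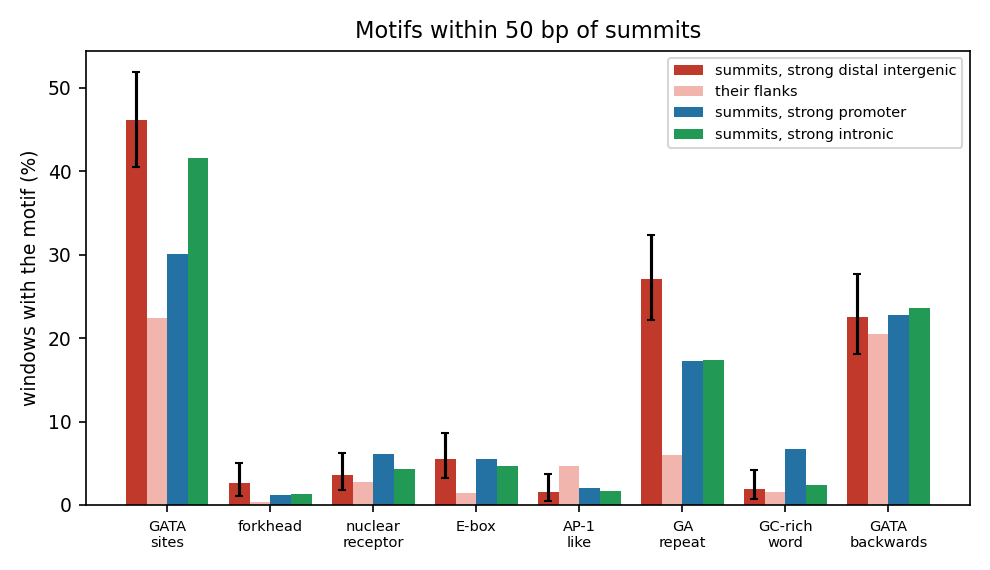
Percent of windows within 50 bp of the summit that hold each motif (y axis, motifs along the x axis) for strong distal intergenic regions, their flanks 500 bp away, and strong promoter and intronic regions; bars are shares and lines on the distal bars are 95% exact binomial intervals. GATA sites at 46.1% and the GA repeat at 27.1% stand highest at distal summits. The backward GATA words, some of which keep a GATA core, are near 20.5% to 23.6% throughout.

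All 2080 words of 6 bases, each joined with its reverse complement, were compared between summits and flanks by Fisher's exact test with Benjamini-Hochberg adjustment. At an adjusted p under 0.05, 111 words (5.34%) were higher at summits and 67 (3.22%) lower. The other settings run gave fewer of both, 44 to 68 higher and 33 to 53 lower words, with 54 and 33 without replicate 1 and 48 and 49 without replicate 2. Summit windows were richer in G and C than flanks, 40.8% ± 7.1 (SD over 310 windows) against 34.1% ± 8.2 (620 windows). Of the 67 lower words 58 had at most 1 G or C, such as AAAATT, in 15.5% of summits and 44.4% of flanks (adjusted exact p = 3.60e-16). Of the 111 higher words 43 had at least 4. The share of the word counts that goes with base composition was not tested. Among the 5 words of smallest p were GAGAGA and GATAAG as well as TGATAA, the last in 31.6% of summits and 10.5% of flanks (adjusted exact p = 5.48e-12), and 9 of the higher words contained a GATA core.

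In position, the summits lay at a median of 2526 bp (quartiles 1594 and 4083) from the nearest 5′ end of a protein-coding gene, and none was farther than 16257 bp. Within 2000 bp there were 111, from there to 5000 bp 143, and beyond 5000 bp 56 (18.1%). The rule set the lower bound, yet 7 summits lay under 1000 bp, the nearest at 464 bp, on the downstream side of short genes. Lower-ranked distal regions had a median of 2618 bp and 18.5% beyond 5000 bp. The nearest 5′ end pointed away from the summit, placing it upstream of the gene, in 228 regions (73.5%), against 69.8% of the lower-ranked ones. For 138 regions a 3′ end was nearer than any 5′ end, and in 44 it lay within 500 bp. The word distal thus refers to 5′ ends alone.

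The intergenic spaces were between 200 and 35563 bp long, with a median of 6848 bp, and 7358 bp for lower-ranked regions. Flanking genes were divergent in 110 cases (35.5%) against 32.0% of lower-ranked regions (odds ratio 1.17, 0.906 to 1.49, adjusted p = 0.230 by Fisher's exact test over 2 comparisons). They were convergent in 29 cases (9.35%) against 13.3% (odds ratio 0.675, 0.439 to 1.00, adjusted exact p = 0.105). Neither difference was called. Genes in tandem flanked the other 171. Untested, GATA sites were present in 51.8% (42.1% to 61.4%) of regions in divergent and 40.9% (33.5% to 48.7%) in tandem spaces. In convergent spaces they were present in 16 of 29 (55.2%, 35.7% to 73.6%), and the 3 intervals overlap. By distance to the 5′ end, also untested, they were present in 41.4% of regions within 2000 bp, 50.3% up to 5000 bp and 44.6% beyond.

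**Figure D5:**
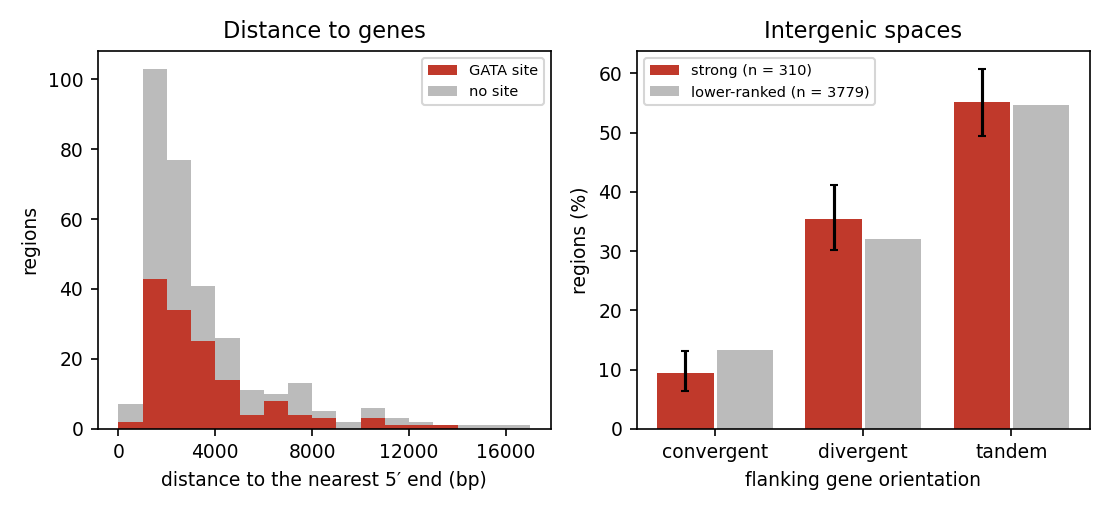
Left, number of regions (y axis) by distance to the nearest protein-coding 5′ end in bp (x axis, bins of 1000 bp), stacked by presence of a GATA site; right, percent of regions (y axis) by orientation of the flanking genes for the 310 strong and 3779 lower-ranked distal regions, with 95% exact binomial intervals on the strong ones. Most regions lie within 5000 bp, and tandem spaces hold 55.2% of them.

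By chromosome there were 62 regions on I, 75 on II, 50 on III, 64 on IV and 59 on V. Chromosome II held 24.2% of them with 18.5% of the autosomal sequence, and V held 19.0% with 25.3%. Chromosome I held 27.9% of all strong autosomal regions but 62 of the 310 distal ones. GATA sites were present in 41.3% to 52% of the distal regions of each chromosome.

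Regions shared spaces. There were 261 distinct spaces, and 35 of them held at least 2 regions, 84 in all (27.1%). The most, 6, lay in the divergent space of 35563 bp between irld-18 and dmd-6, a gene of the DM domain family, on chromosome IV. The strongest was the one near irld-18 described above, 22220 bp from the 5′ end of dmd-6. The other 5 formed a group 2257 to 6036 bp upstream of dmd-6, with pooled signals of 30.8, 29.1, 57.1, 42.1 and 54.1 in order of position. In replicate 1 they had 11.2, no listed summit, 26.9, 18.3 and 28.8, and in replicate 2 they had 16.8, 20.6, 31.1, 23.9 and 27.8. Both replicates thus placed the same 3 regions highest in the group. Of all 6 regions 5 had a GATA site, and the exception was the one closest to dmd-6, with a pooled signal of 54.1.

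Further groups lay between Y37D8A.4 and Y37D8A.5 (4 regions, 2 with a GATA site), between acs-11 and F41C3.2 (4 regions, 1 with a site) and between pde-2 and R08D7.7 (3 regions, each with a site). The space between snt-1, the synaptotagmin gene of synaptic vesicles, and egl-27 held 3 regions in 18574 bp, with pooled signals from 29.2 to 45.1. Regions of 1 space are not independent of each other.

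Noncoding genes lay within 200 bp of 47 of the 310 summits (15.2%, 11.4% to 19.6%) against 17.8% of lower-ranked distal regions (odds ratio 0.825, 0.585 to 1.14, adjusted exact p = 0.277 over 2 comparisons). Without replicate 1, with the rule applied to the list of replicate 2 alone, the odds ratio was 1.20. A tRNA gene lay that close to 4 summits (1.29%), near C16C8.17, sepa-1, cutl-28 and C14B9.3, and to 12 of 3779 lower-ranked ones (0.318%). The odds ratio was 4.10 (0.958 to 13.6) and the adjusted exact p 0.0569, which misses the threshold. The list of replicate 2 alone passed it (5.14, adjusted exact p = 0.0241), that of replicate 1 alone did not (3.23, adjusted exact p = 0.144), and with promoters of 2000 bp the odds ratio was 1.27 (adjusted exact p = 0.566). Of the 4 regions only that near C16C8.17 had a GATA site. Within 200 bp of any noncoding gene 16 of 47 regions (34.0%) had one. Leaving out all regions near noncoding genes, the odds ratio of summits against flanks was 3.37. Finally, 8 summits lay in an intron of a noncoding gene, a place that the rule did not bar.

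The genes beside these regions were of many kinds. The 310 summits had 280 different nearest genes, 1.62% of the 17242 autosomal protein-coding genes, and that share is the background for each list below. Nearness does not show that a region acts on a gene. Among 43 genes of zona pellucida, cuticlin and apical matrix proteins, which build and shape the cuticle, 3 were nearest to a region (6.98%). They were cutl-6 with a signal of 31.8, mlt-7, a peroxidase gene of molting, with 31.7, and cutl-28 with 28.2. The cutl-6 region stood at rank 6058 of replicate 1 and 499 of replicate 2, and the cutl-28 region at 1611 and 8777. The mlt-7 region had no match in replicate 1 and rank 243 in replicate 2, and it alone of the 3 had a GATA site. The hedgehog-related and patched-related genes, many of them epidermal, had 3 of 73 (4.11%). The strongest of these lay 5190 bp upstream of ptc-3, with 50.7 in the pooled list, 31.2 in replicate 1 and 22.2 in replicate 2, and no GATA site within 50 bp. Those near ptr-13 and ptr-22 had 27.9 and 27.6 in the pooled list, no match in replicate 1, and 20.3 and 17.3 in replicate 2.

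Cuticle collagens had 2 of 146 (1.37%), col-3 with 31.4 and col-104 with 26.5, a share close to the background. The col-3 region had 9.35 in replicate 1 and 21.2, at rank 271, in replicate 2. The col-104 region had 8.71 in replicate 1 and 17.8, at rank 618, in replicate 2. Both stood far lower in the order of replicate 1, at ranks 20941 and 25352. None of the 14 epidermal and seam cell regulators, the 7 other autosomal GATA factors, the 64 homeobox genes, the 80 ribosomal protein genes, the 21 Wnt pathway genes, the 24 body muscle genes or the 17 intestinal genes was nearest to a region. For each list alone, 0 genes is close to what the background share gives. These counts cover the listed genes only. The zinc-finger homeobox gene zfh-2, nearest to a region of signal 35.2, is not among the 64.

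Nuclear hormone receptors had 9 of 247 genes (3.64%) and 10 regions. The strongest were those near nhr-119 (58.3), nhr-162 (51.3), nhr-61 (39.1) and nhr-258 (38.3), and 3 of the 10 had a GATA site. Chemoreceptor genes, a large family of neuronal receptors, had 11 of 1261 (0.872%), led by str-166 with 53.5, srd-7 with 44.7, str-131 with 36.7 and srsx-7 with 36.0. Neuropeptide genes had 3 of 107 (2.80%), ins-13 with 49.5, nlp-40 with 30.7 and ins-33 with 27.1. The ins-13 region, near an insulin-like gene, lay 33 bp from an annotated ncRNA gene.

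Of the remaining lists, neuronal and synaptic genes had snt-1 alone of 23 listed genes, with 2 regions at 45.1 and 29.8. T-box and bHLH factors had hlh-10 of 41 (29.8), heat shock proteins dnj-25 of 46 (26.2), histones hil-2 of 76 (27.6), and F-box and C-type lectin genes clec-108 of 542 (27.1). The lists are not complete. The bHLH gene mml-1, nearest to a region of signal 40.2, is not among the 41, and unc-49, nearest to one of 34.6, is not among the 23. No set test was run on these lists.

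The median signal of regions with and without a GATA site is given as a description. Medians were 31.8 with a site and 29.0 without in the pooled list, 18.04 and 16.3 in replicate 1, and 16.04 and 15.1 in replicate 2. Both replicates listed 80.4% of the regions with a site and 73.7% of those without. Of the 73 regions among the first 2000 in each replicate 46 (63.0%) had a site, against 97 of the other 237 (40.9%). In the authors' optimal set the share was 28 of 43 (65.1%), and outside it 115 of 267 (43.1%). Those 43 are the regions of largest pooled signal, nearly the same as the 42 at ranks 1 to 250, where the share was 64.3%. With the optimal set left out, the odds ratio of summits against flanks was 2.64. In the lists of the single replicates, under the same rule of rank and place, that odds ratio was 2.23 in replicate 1 and 2.49 in replicate 2.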

How the data were processed

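ELT-3 ChIP-seq regions from 2 biological replicates of 1 group of L1 larvae were analysed. The deposited region lists carry a signal value, a score made by the authors on a scale that their notes do not name. Per the deposited notes, each replicate list came from 1 replicate and a control, and the pooled list from both replicates and a control. For the peak caller, aligner, IDR threshold and read depth, the sources used here give nothing. Regions were 250 bp wide in the pooled list (30000 regions) and 260 bp in replicate 1 (30000), and replicate 2 listed 15646.

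Positions are 1-based in ce11 and were set against WBcel235 with Ensembl release 115 (19973 protein-coding genes). Shares were compared by Fisher's exact test, 2-sided, threshold 0.05, with Benjamini-Hochberg adjustment within each family. Windows were treated as independent, and p-values over regions describe these libraries, not the spread between worms. Python 3.11.15, scipy 1.17.1 and pandas 2.3.3 were used.

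The regions, motifs and gene lists were chosen with earlier results of these data known. Named genes are those beside the 15 regions of largest signal and up to 4 regions of each of 18 lists. Others are said to be so chosen or stand in counts. Printed windows are some of those of the 15 and of the clusters of sites among the first 50 regions.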

Additional observations from a re-analysis of the deposited data

How the results depend on the processing

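The 12 results were checked in 73 pairings of a result with another setting, and the same settings served several results. Of these, 53 values kept the direction and the side of the threshold, or stayed close for counts and shares. So did all 12 values from pairings with settings added after the data were seen. The odds ratio of GATA sites at summits against flanks lay between 1.71 (within 25 bp) and 5.94 (GATAAG alone). Within 25 bp the odds ratio against promoters was 1.30 (no longer called) and that against introns 0.840 (reversed). Against introns a difference was called with the first 3000 regions (1.38), within 100 bp (1.51) and with GATAAG alone (1.71). Words higher and lower at summits numbered 44 and 40 with the first 1000 regions, and 48 to 54 and 33 to 49 without a replicate. The higher words numbered 68 with promoters of 2000 bp and 59 with flanks at 300 bp. Without a replicate, the odds ratios ranged from 2.23 to 2.49 against flanks, 1.74 to 2.06 against promoters, 1.23 to 1.36 against introns, 2.06 to 2.33 against lower-ranked regions, 0.764 to 1.20 for noncoding genes (reversed without replicate 1) and 3.23 to 5.14 for tRNA genes. The share of regions matched in replicates 1 and 2 was 76.8% and 79.0% within 50 bp, 96.1% and 91.0% by overlap, and 51.0% and 53.2% in the first 2000. The causes were not tested. Replicates were not paired between groups, since there was 1 group. Read depth is unknown. Intervals and p-values count regions, which are not independent replicates, and they do not measure the spread between the biological replicates.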
